A study of Mus musculus with 12 samples.

Results

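The growth and trophic factors examined here were 10 genes of secreted ligands that microglia are known to make or answer to: Pdgfa, Pdgfb, Hgf, Igf1, Tgfb1, Bdnf, Hbegf, Areg, Osm and Lif. They were chosen by name, with earlier results of these data known. Of the 10, 9 had a probe set that carried their symbol alone, among 19938 genes measured. Areg, which encodes amphiregulin, was not analysed here. The cells were primary microglia of C57BL/6J mice, isolated by CD11b magnetic beads from pups at postnatal day 7, grown for 3 days in medium with serum, and profiled on 12 Affymetrix Mouse Gene ST arrays. All groups were treated for 6 h. The vehicle group received DMSO at 0.4% and ethanol at 0.001%. The Aβ42 group received oligomeric Aβ42, the peptide that forms Alzheimer's disease plaques, at 10 µM with the ethanol vehicle. The AE1-329 group received 100 nM AE1-329, which activates EP4, a receptor of prostaglandin E2, with the DMSO vehicle. The fourth group received both agents. Each group held 3 arrays, 1 for each of 3 litters. All groups were cultures of postnatal cells in serum, which limits them as a model of adult microglia.

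Growth factors act by binding receptors on the same or neighbouring cells. PDGF-A and PDGF-B chains act on cells that carry PDGF receptors, HGF acts on the receptor MET, and IGF1 on IGF1R. TGF-beta 1 is secreted in a latent form, must be released, and keeps microglia in their homeostatic state. HB-EGF and amphiregulin are made as membrane proteins, shed by proteases, and bind the EGF receptor. Oncostatin M and LIF belong to the interleukin-6 family and signal through the shared subunit gp130, encoded by Il6st. BDNF is a neurotrophin that binds the receptor TrkB.

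Values are log2 expression values, on which 1 unit is a 2-fold step, and a change is the log2 difference of 2 group means, given ± its standard error in a limma fit over 12 arrays. Array medians lay between 6.97 and 7.05. Levels of different probe sets were set beside each other or the array medians only to mark bright or dim genes. Bdnf (6.36 to 6.60) lay below every array median. All 12 measured microglia markers lay above the median in every group, with a mean level from 10.79 to 11.08. The 5 to 7 measured markers of each other cell type had mean levels between 5.35 and 7.85, but some of them lay above the median. These were 3 to 5 of 7 astrocyte markers, 2 to 4 of 7 of the oligodendrocyte lineage, 1 to 3 of 7 endothelial and mural markers, 3 of 5 fibroblast markers and 2 of 5 of monocytes and border macrophages. Of neuronal markers 1 of 7 did, of neutrophil markers 0, and of mast cell and lymphocyte markers 0 to 1 of 5. The mural marker Acta2 had group means from 11.22 to 11.52, and Cnp and Mbp of the oligodendrocyte lineage from 9.17 to 9.60 and from 8.68 to 9.04. Some markers moved with treatment. At an adjusted p under 0.05, 2 of the 12 microglia markers rose and 4 fell with Aβ42 alone. With AE1-329 alone 1 of them rose and 3 fell. Of 7 astrocyte markers 1 rose and 0 fell with Aβ42 alone. With Aβ42 alone 2 of 7 oligodendrocyte lineage markers and 1 of 7 endothelial and mural markers also fell. Of 5 mast cell and lymphocyte markers 1 rose with it. Of 7 endothelial and mural markers 2 rose and 0 fell with AE1-329 alone. Of all genes 25.6% passed with Aβ42 alone and 10.2% with AE1-329 alone. P2ry12, of homeostatic microglia, fell by 1.43 ± 0.11 with Aβ42 (adjusted p = 3.9e-07), and the astrocyte marker Slc1a3 rose by 0.52 ± 0.11 (adjusted p = 0.0032). With AE1-329 alone the endothelial markers Pecam1 and Kdr rose by 1.22 ± 0.08 and 0.64 ± 0.10 (adjusted p = 5.2e-07 and 0.0014), and Cx3cr1, of microglia, fell by 0.82 ± 0.10 (adjusted p = 0.00013). The part of these shifts in the results below was not tested. These markers were named after their values were seen. Vehicle arrays varied more among themselves (median standard deviation 0.109) than the arrays of the other groups (0.063 to 0.066).

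The promoter table of RefSeq (GRCm38.p6) held 7 of the 10 genes, all except Pdgfb, Hbegf and Osm. The 250 bases before the start are shown for Hgf, Lif and Tgfb1. Pdgfa also passed the test in 1 comparison below, a call that ended under 9 alternatives, and its matches are given in words. Capitals mark matches, on either strand, to the CRE (TGACGTCA) and its core TGACG, to the AP-1 motif TGANTCA, to the STAT motif TTCNNNGAA, to the TATA box TATAAA and to the NF-kB consensus. The core lies within the CRE, so those matches overlap.
Hgf, chr5:16553245-16553494, plus strand, the first of 2 starts: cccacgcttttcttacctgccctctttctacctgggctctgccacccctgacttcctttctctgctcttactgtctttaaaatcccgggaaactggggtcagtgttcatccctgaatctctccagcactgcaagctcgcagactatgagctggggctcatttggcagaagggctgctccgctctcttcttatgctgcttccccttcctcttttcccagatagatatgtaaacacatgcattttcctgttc
Lif, chr11:4257318-4257567, plus strand: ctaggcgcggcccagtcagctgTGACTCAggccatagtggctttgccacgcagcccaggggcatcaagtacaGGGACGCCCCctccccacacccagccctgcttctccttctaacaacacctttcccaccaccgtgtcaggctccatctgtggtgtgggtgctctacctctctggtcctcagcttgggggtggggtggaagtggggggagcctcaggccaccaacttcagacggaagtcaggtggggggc
Tgfb1, chr7:25686752-25687001, plus strand: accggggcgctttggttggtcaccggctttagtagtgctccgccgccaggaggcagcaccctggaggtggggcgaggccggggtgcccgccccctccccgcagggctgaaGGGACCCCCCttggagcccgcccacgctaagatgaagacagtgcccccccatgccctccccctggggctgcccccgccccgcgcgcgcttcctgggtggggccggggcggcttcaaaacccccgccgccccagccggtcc
The Hgf window held no match to any of these letters. The Lif window held an AP-1 match 228 bases before the start and an NF-kB match 178 bases before it, and the Tgfb1 window held an NF-kB match 140 bases before the start. The first of 2 Pdgfa windows held the CRE core 205 bases and an NF-kB match 49 bases before the start. Of 32851 promoter windows of this length, 6.75% held the AP-1 motif and 7.25% the NF-kB consensus. The full CRE stood in 1.55% of the windows, its core in 17.8%, the STAT motif in 7.02% and the TATA box in 12.4%. Among the 7 genes the full CRE was found only in Areg, 61 bases before its start. A match describes the letters of the window and does not show a site in use.

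Hgf, the gene of hepatocyte growth factor, moved most among the factors, and Aβ42 and AE1-329 moved it in opposite directions. Hgf read 10.37, 10.14 and 10.18 on the vehicle arrays, 7.75, 7.59 and 7.85 with Aβ42, 11.06, 11.10 and 11.14 with AE1-329, and 8.44, 8.53 and 8.58 with both. The order was AE1-329 alone, vehicle, both agents and Aβ42 alone, and no neighbouring groups in it overlapped. Hgf fell by 2.50 ± 0.08 with Aβ42 alone (5.66-fold, adjusted p = 8e-11) and rose by 0.87 ± 0.08 with AE1-329 alone (1.82-fold, adjusted p = 1e-05). In Aβ42-treated cells AE1-329 raised it by 0.78 ± 0.08 (adjusted p = 2.5e-05), and the level with both agents stayed 1.72 ± 0.08 below vehicle (3.29-fold, adjusted p = 2.3e-09). The response to AE1-329 was 0.69, 0.96 and 0.96 without Aβ42 and 0.69, 0.93 and 0.73 with it, litter by litter. The interaction, which is the difference between these 2 responses, was -0.09 ± 0.11 with a 95% interval from -0.32 to 0.15. In such bulk samples fewer cells that express a gene and less RNA per cell cannot be told apart.

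**Figure D1:**
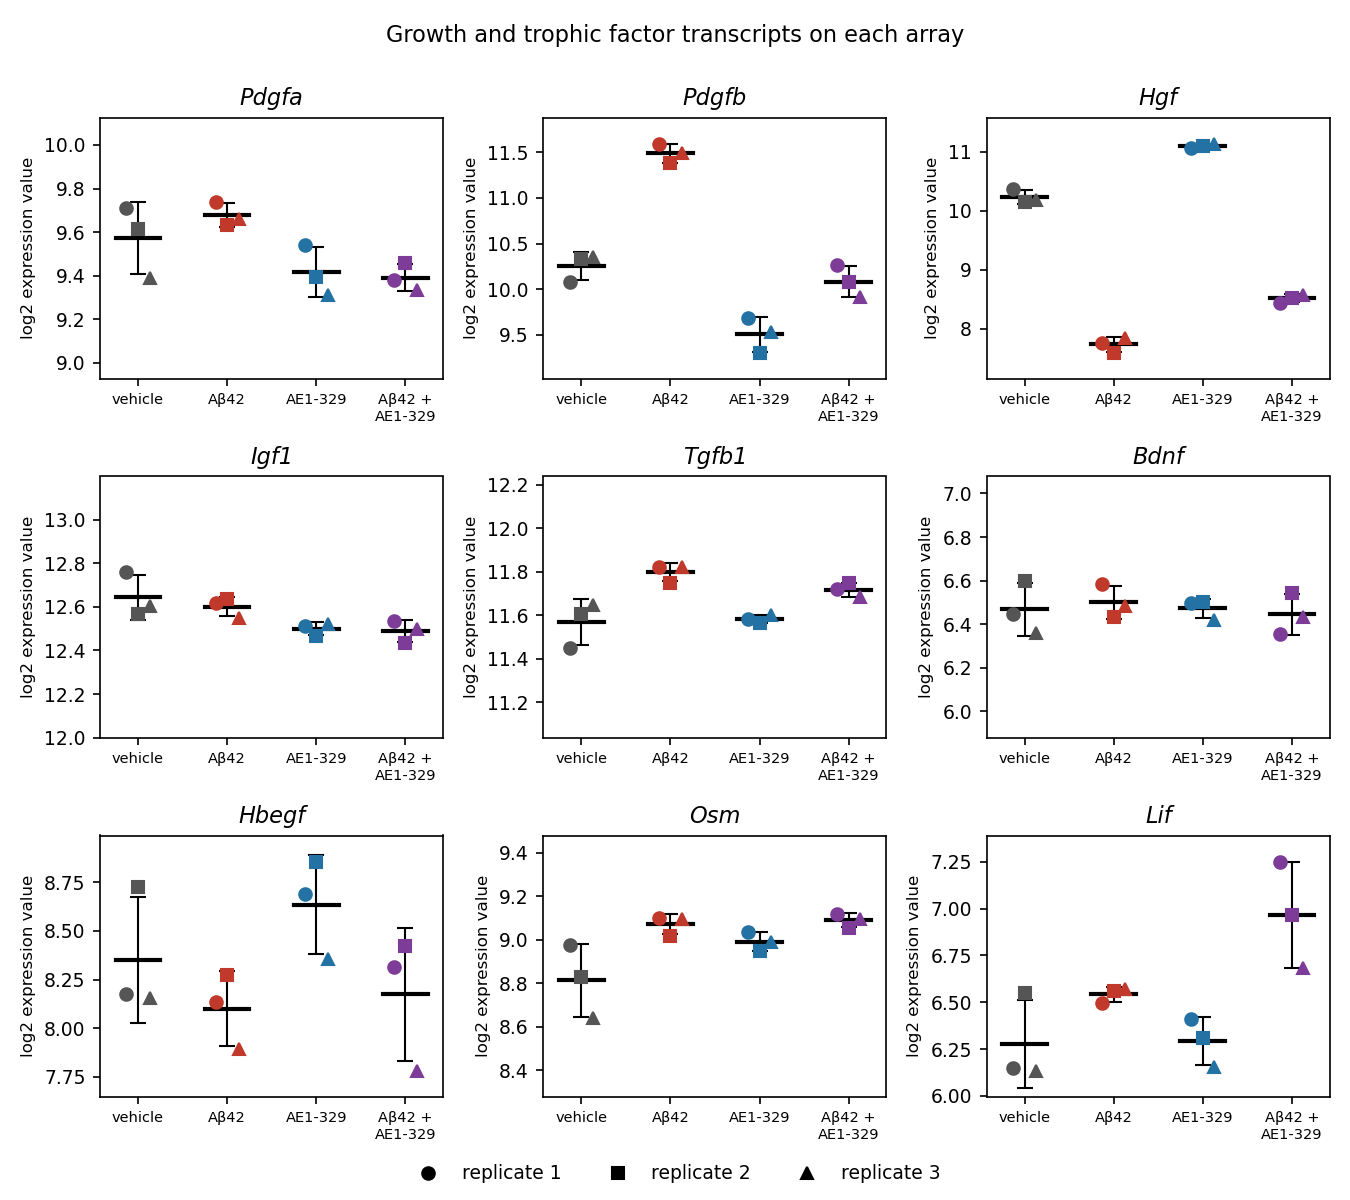
Log2 expression values of the 9 measured factors on each of 12 arrays, by treatment, with symbols for the replicate number, the group mean as a bar and the standard deviation as whiskers (n = 3). Each panel has its own vertical range. The 4 groups of Hgf do not overlap, Pdgfb is highest with Aβ42 alone (11.39 to 11.60), and the groups of Bdnf overlap throughout.

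Met, the gene of the HGF receptor, moved against its ligand with Aβ42 and with it under AE1-329 in Aβ42-treated cells. Met read 5.81, 6.04 and 5.98 in vehicle, 7.15, 7.24 and 7.16 with Aβ42, 6.09, 6.13 and 6.18 with AE1-329, and 7.91, 7.75 and 7.95 with both. It was lowest in vehicle and highest with both agents, and no groups overlapped. The vehicle level lies below the array medians, and whether it lies above background is unknown. The rise with Aβ42 alone was 1.24 ± 0.07 (adjusted p = 2.6e-08), and AE1-329 added 0.68 ± 0.07 on top (adjusted p = 3.9e-05), which brought Met to 1.93 ± 0.07 above vehicle (adjusted p = 3.6e-10). The interaction passed at 0.49 ± 0.10 (adjusted p = 0.0226), a call lost with every probe set tested (0.0644) and without any 1 of replicates 1 or 3 of both agents, 1 or 3 of Aβ42 alone, or 1 or 2 of AE1-329 alone (0.0661 to 0.0707). Plau, which encodes urokinase, a protease known to activate plasminogen and the HGF precursor, fell with each treatment, by changes of -1.36 ± 0.15 with Aβ42, -1.50 ± 0.15 with AE1-329 and -2.15 ± 0.15 with both (adjusted p = 1.6e-05, 3.5e-05 and 2.1e-07). Not all genes of its list that bear on HGF followed it. Hgfac, the gene of HGF activator, had group means from 6.83 to 7.02. Spint1 fell by 0.28 with Aβ42, a call lost under 4 of 19 alternatives, and read 7.93 with AE1-329 alone against 7.66 in vehicle.

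Pdgfb, the gene of the PDGF-B chain, rose with Aβ42 and fell with AE1-329, the reverse of Hgf. It read 10.08, 10.33 and 10.35 in vehicle, 11.60, 11.39 and 11.49 with Aβ42, 9.68, 9.30 and 9.53 with AE1-329, and 10.26, 10.08 and 9.91 with both. Aβ42 alone was the highest group and AE1-329 alone the lowest, and between them vehicle and the combined treatment overlapped. The rise with Aβ42 was 1.24 ± 0.11 (2.36-fold, adjusted p = 2.2e-06). The fall with AE1-329 was -0.75 ± 0.11 without Aβ42 (adjusted p = 0.00082) and -1.41 ± 0.11 in its presence (2.65-fold, adjusted p = 4.2e-06). With both agents Pdgfb differed from vehicle by -0.17 ± 0.11 (95% interval -0.41 to 0.07, adjusted p = 0.385). In AE1-329-treated cells Aβ42 raised it by 0.58 ± 0.11 (adjusted p = 0.0019).

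The fall of Pdgfb with AE1-329 was larger in the presence of Aβ42 in 3 of 3 litters. It was -0.39, -1.02 and -0.82 without Aβ42 and -1.34, -1.31 and -1.58 with it. The interaction was -0.66 ± 0.16 and did not pass in limma (adjusted p = 0.0564), but it passed with the litter as a block (0.0359). It also passed without replicate 1 of both agents (0.0433) or replicate 2 of AE1-329 alone (0.0328), among genes above the median level (0.0397) and with a robust prior that follows the mean level (0.0419). Over all 18 alternatives its adjusted p ranged from 0.0328 to 0.148.

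**Figure D2:**
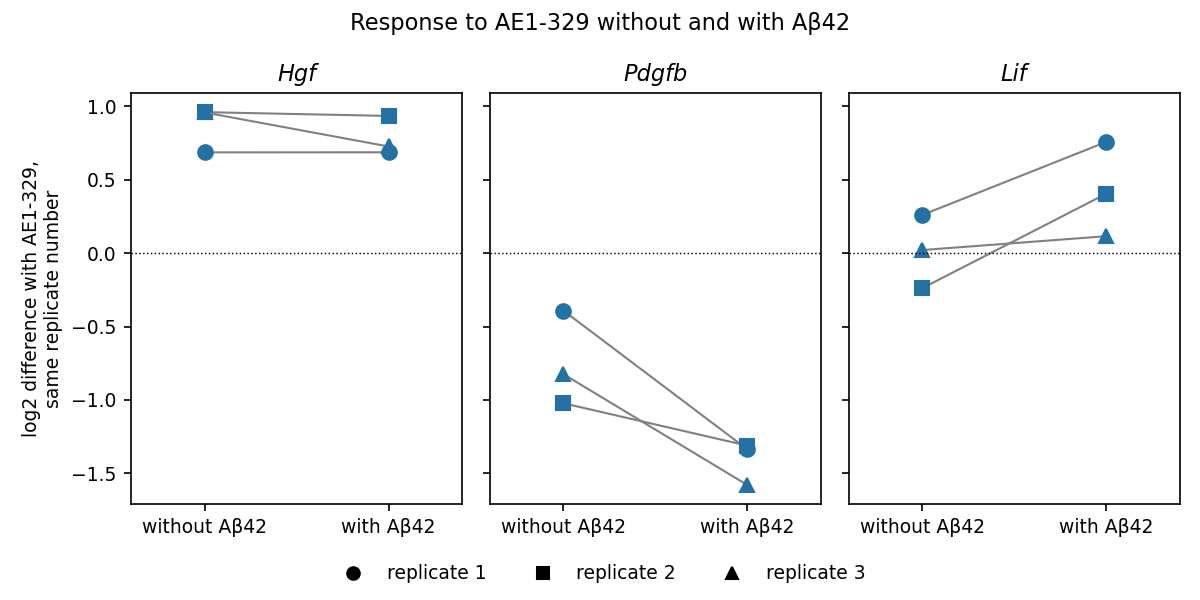
Log2 difference between arrays with and without AE1-329 of the same replicate number, for Hgf, Pdgfb and Lif, without Aβ42 (left points) and with it (right points). Lines join replicates of 1 litter, and the dotted line marks no difference. The Hgf responses lie between 0.69 and 0.96 on both sides, that of Pdgfb is lower with Aβ42 in 3 of 3 litters, and that of Lif is higher with Aβ42 in 3 of 3.

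Pdgfa, the gene of the PDGF-A chain, kept within a narrow range. It read 9.71, 9.61 and 9.39 in vehicle, 9.74, 9.63 and 9.66 with Aβ42, 9.54, 9.40 and 9.31 with AE1-329, and 9.38, 9.46 and 9.33 with both. The combined group lay below Aβ42 alone without overlap and overlapped AE1-329 alone, and vehicle overlapped every other group. In limma Pdgfa fell by 0.29 ± 0.08 when AE1-329 was added to Aβ42 (1.22-fold, adjusted p = 0.0439). That call ended when any 1 of the 6 arrays compared or replicate 2 of AE1-329 alone was left out (adjusted p = 0.0629 to 0.161), after another quantile normalization (0.0621) and with every probe set tested (0.0893). With Aβ42 alone Pdgfa changed by 0.11 ± 0.08 and with AE1-329 alone by -0.15 ± 0.08, and neither passed (adjusted p = 0.424 and 0.333). The PDGF receptor genes did not pass with Aβ42 either, with Pdgfrb at 0.46 ± 0.21 and Pdgfra at -0.01 ± 0.11.

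Tgfb1, the gene of transforming growth factor beta 1, rose slightly with Aβ42, while the gene of its type II receptor fell with either agent. Tgfb1 read 11.45, 11.61 and 11.65 in vehicle, 11.82, 11.75 and 11.82 with Aβ42, 11.58, 11.57 and 11.60 with AE1-329, and 11.72, 11.75 and 11.69 with both. Both groups with Aβ42 lay above both groups without it, and within each of these pairs the groups overlapped. The rise with Aβ42 alone was 0.23 ± 0.06 (1.17-fold, adjusted p = 0.0090), a call lost with only the 6 arrays compared in the fit (0.0606). The change with AE1-329 alone was 0.01 ± 0.06 and that with AE1-329 on top of Aβ42 was -0.08 ± 0.06 (adjusted p = 0.938 and 0.515). Both agents differed by 0.13 ± 0.06 from AE1-329 alone and by 0.15 ± 0.06 from vehicle, and neither passed (adjusted p = 0.131 and 0.0915). The former passed without vehicle replicate 1 (0.0318), and the latter under 3 of 19 alternatives (0.0436 to 0.0468).

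Tgfbr2, whose product binds TGF-beta first, read 11.06, 11.35 and 11.26 in vehicle, 10.45, 10.46 and 10.51 with Aβ42, 10.68, 10.63 and 10.67 with AE1-329, and 9.89, 10.02 and 9.91 with both. No groups overlapped. It fell by 0.75 ± 0.07 with Aβ42 (adjusted p = 3e-06), by 0.56 ± 0.07 with AE1-329 (adjusted p = 0.00019) and by 1.28 ± 0.07 with both (2.43-fold, adjusted p = 1.7e-08). The interaction was 0.03 ± 0.10, with a 95% interval from -0.19 to 0.24. Tgfbr1, the signalling partner of Tgfbr2, fell by 0.25 ± 0.06 when AE1-329 was added to Aβ42 (adjusted p = 0.0101, and 0.0574 without replicate 3 of both agents). Nrros, which encodes the protein that holds latent TGF-beta 1 on microglia, fell by 0.75 ± 0.07 with Aβ42 (adjusted p = 5.5e-06). Thbs1, the gene of thrombospondin-1, an activator of latent TGF-beta, rose by 1.44 ± 0.25 with AE1-329 alone and by 1.38 ± 0.25 on top of Aβ42 (adjusted p = 0.00212 and 0.00265). The inhibitory SMAD gene Smad7, a usual target of TGF-beta signalling, fell by 0.91 ± 0.07 with Aβ42 (adjusted p = 2.9e-07). Other usual targets in the same list rose with Aβ42. Tgfbi, which encodes a secreted matrix protein, rose by 0.74 ± 0.10 with Aβ42 alone, by 0.70 ± 0.10 with AE1-329 alone and by 1.27 ± 0.10 with both (adjusted p = 0.00011, 0.00061 and 7.6e-07). Skil, which encodes a SMAD repressor, rose by 0.50 ± 0.06 with Aβ42 alone (adjusted p = 5.4e-05).

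**Figure D3:**
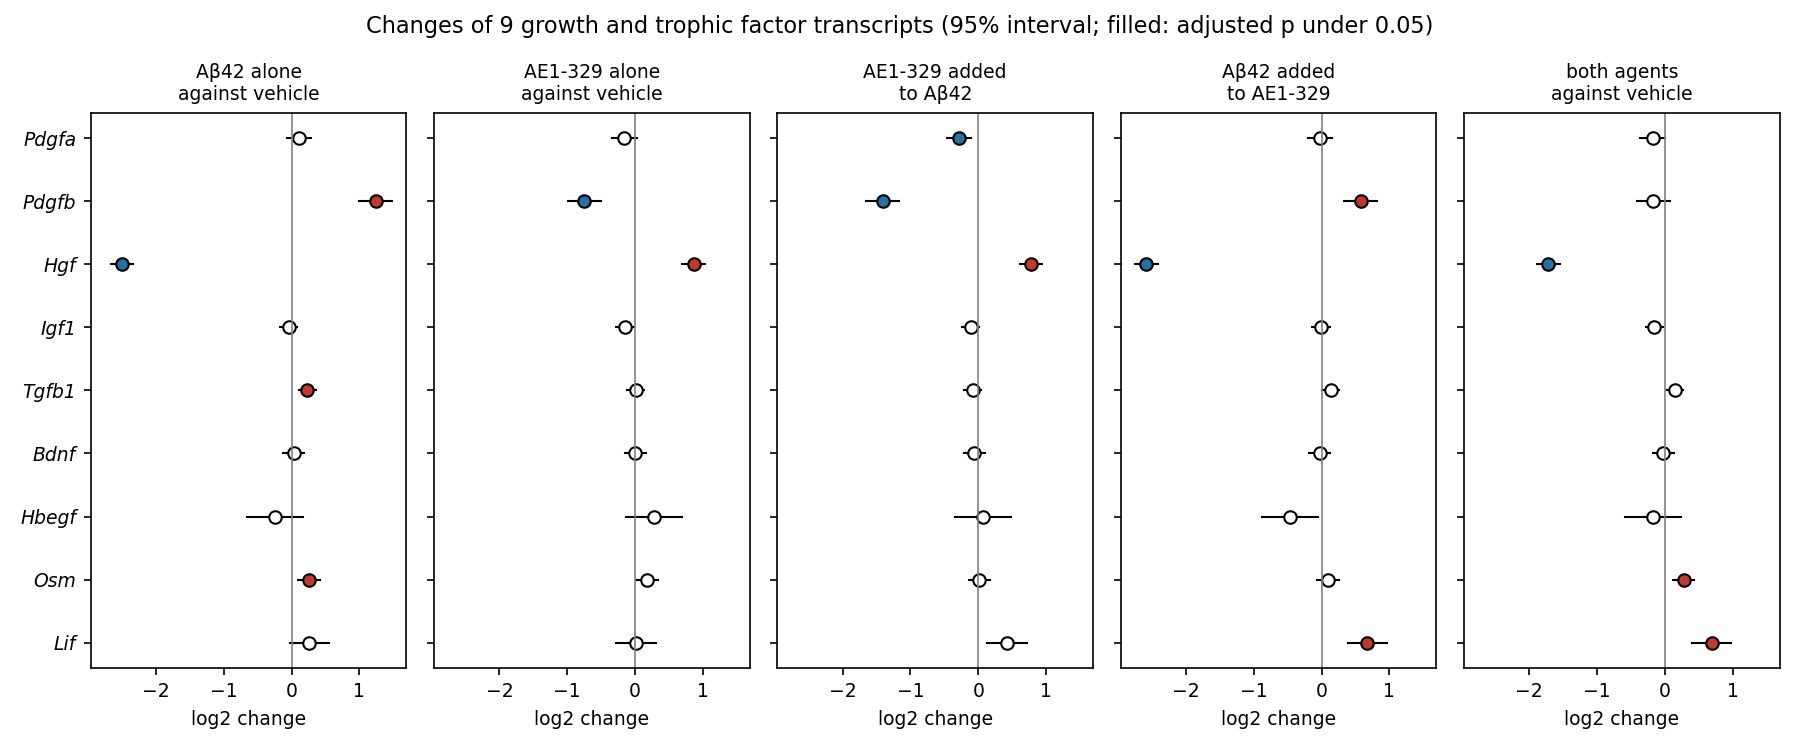
Log2 changes of the 9 factors in 5 comparisons of group means, with 95% intervals of the limma fit over 12 arrays. Filled points have an adjusted p under 0.05, red for higher and blue for lower. Hgf and Pdgfb lie on opposite sides of 0 in the first 4 panels, and Lif is filled only where both agents are compared with AE1-329 alone or with vehicle.

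Osm and Lif, which encode oncostatin M and leukemia inhibitory factor, are neighbouring genes in RefSeq. Lif was highest with both agents, while Osm was lowest in vehicle. Lif read 6.15, 6.55 and 6.13 in vehicle, 6.50, 6.56 and 6.57 with Aβ42, 6.41, 6.31 and 6.16 with AE1-329, and 7.25, 6.97 and 6.68 with both. The combined group lay above every other group, with a wide spread of its own (standard deviation 0.28), and the vehicle group overlapped each of the single treatments. With both agents Lif was 0.69 ± 0.13 above vehicle (1.61-fold, adjusted p = 0.0021) and 0.68 ± 0.13 above AE1-329 alone (adjusted p = 0.0023). Neither agent alone passed, with 0.26 ± 0.13 for Aβ42 and 0.01 ± 0.13 for AE1-329 (adjusted p = 0.195 and 0.978). Without vehicle replicate 2 the change with Aβ42 alone was 0.40 ± 0.13 and passed (0.0366).

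AE1-329 on top of Aβ42 changed Lif by 0.42 ± 0.13 in 3 of 3 litters upwards (0.76, 0.40 and 0.11). This did not pass in the fit over all arrays (adjusted p = 0.0657) and passed with the litter as a block (0.0311). It also passed with quantile normalization again (0.0445) and without replicate 3 of both agents (0.0172) or vehicle replicate 2 (0.0317), over a range from 0.0172 to 0.265. The interaction for Lif was 0.41 ± 0.19 (95% interval -0.0019 to 0.83, adjusted p = 0.483).

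Osm read 8.97, 8.83 and 8.64 in vehicle, 9.10, 9.02 and 9.10 with Aβ42, 9.03, 8.95 and 8.99 with AE1-329, and 9.12, 9.05 and 9.09 with both. The vehicle group was lowest and overlapped only AE1-329 alone. Osm rose by 0.26 ± 0.07 with Aβ42 alone (1.20-fold, adjusted p = 0.0191) and by 0.28 ± 0.07 with both agents (1.21-fold, adjusted p = 0.0155). The first call was lost without replicates 1 or 3 of Aβ42 alone or vehicle replicate 3, and with only the arrays compared (0.0642 to 0.0878). The second was lost without replicate 1 of both agents or vehicle replicate 3, and with only the arrays compared (0.0502 to 0.0810). Without vehicle replicate 3 the rise with Aβ42 was 0.17 ± 0.06. With AE1-329 alone Osm changed by 0.18 ± 0.07 (adjusted p = 0.177), and without vehicle replicate 1 it passed at 0.26 ± 0.06 (0.0194).

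Il6st and Lifr, which encode receptor subunits for Lif and, for Il6st, also for Osm, fell with Aβ42. Il6st read 11.26, 11.33 and 11.30 in vehicle, 10.25, 10.27 and 10.15 with Aβ42, 11.21, 11.13 and 11.10 with AE1-329, and 10.31, 10.29 and 10.22 with both. Both groups with Aβ42 lay below both groups without it. The fall was 1.07 ± 0.05 with Aβ42 alone (2.10-fold, adjusted p = 8.6e-09), and AE1-329 added to Aβ42 changed Il6st by 0.05 ± 0.05 (adjusted p = 0.696). Lifr, the LIF-binding subunit, fell by 0.87 ± 0.11 with Aβ42 (adjusted p = 4.3e-05), and Osmr changed by 0.05 ± 0.27 (adjusted p = 0.934). Socs3 and Pim1, targets of STAT3 that other cytokines also induce, rose by 3.48 ± 0.14 and 2.71 ± 0.09 with Aβ42 (adjusted p = 7.6e-10 and 1.8e-10).

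Hbegf, the gene of heparin-binding EGF-like growth factor, did not pass in any comparison of the fit over 12 arrays and was spread widely between litters. It read 8.17, 8.72 and 8.16 in vehicle, 8.13, 8.27 and 7.89 with Aβ42, 8.69, 8.86 and 8.36 with AE1-329, and 8.32, 8.42 and 7.78 with both. Replicate 2 was highest and replicate 3 lowest in all 4 groups. Aβ42 alone lay below AE1-329 alone without overlap, and every other pair of groups overlapped. Between both agents and AE1-329 alone Hbegf changed by -0.46 ± 0.19 (adjusted p = 0.117), and by -0.38, -0.43 and -0.58 in the 3 litters. With the litter as a block this difference passed, at -0.46 ± 0.09 (adjusted p = 0.0019). With the block Aβ42 alone gave -0.25 ± 0.09 and AE1-329 alone 0.28 ± 0.09, and neither passed (adjusted p = 0.0538 and 0.0593).

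Among genes of the processing list that bear on HB-EGF, some rose and some fell with Aβ42. Adam17, the gene of its main sheddase, read 10.81, 10.84 and 10.92 in vehicle, 11.71, 11.72 and 11.75 with Aβ42, 10.72, 10.74 and 10.81 with AE1-329, and 11.44, 11.37 and 11.40 with both. It rose by 0.87 ± 0.05 with Aβ42 (adjusted p = 3.1e-08) and fell by 0.32 ± 0.05 when AE1-329 was added (adjusted p = 0.0010). Rhbdf2 and Rhbdf1, which encode the iRhom partners of ADAM17, rose by 1.47 ± 0.08 and 0.62 ± 0.07 with Aβ42 (adjusted p = 1.5e-08 and 1.1e-05). Adam10, which encodes another sheddase of EGF-family ligands, fell by 0.34 ± 0.05 with Aβ42 (adjusted p = 0.00039). Cd9, whose product associates with the HB-EGF precursor, fell by 0.18 ± 0.05 (adjusted p = 0.0236). The Cd9 call ended with only the arrays compared in the fit, and when replicate 1 or 2 of Aβ42 alone or vehicle replicate 3 was left out (0.0707 to 0.0829). Rhbdf1 fell by 0.48 ± 0.07 when AE1-329 was added (adjusted p = 0.00042). Egfr rose by 0.30 ± 0.08 with Aβ42 (adjusted p = 0.0135), a call lost without replicate 1 of Aβ42 alone (0.0673) or vehicle replicate 3 (0.0584). Erbb2, Erbb3 and Erbb4 did not pass with Aβ42 (0.05 ± 0.10, -0.01 ± 0.09 and 0.03 ± 0.07). In vehicle Egfr, Erbb2, Erbb3 and Erbb4 had means from 6.26 to 6.79, below every array median, and whether these lie above background is unknown.

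Igf1, the gene of insulin-like growth factor 1, read 12.76, 12.57 and 12.60 in vehicle, 12.62, 12.64 and 12.55 with Aβ42, 12.51, 12.47 and 12.52 with AE1-329, and 12.53, 12.44 and 12.50 with both. Both groups with AE1-329 lay below both groups without it, by small amounts. The differences were -0.14 ± 0.06 with AE1-329 alone, -0.11 ± 0.06 on top of Aβ42 and -0.15 ± 0.06 for both agents against vehicle, and none passed (adjusted p = 0.175, 0.328 and 0.0921). The last passed among genes above the median level (0.0471), with a robust prior that follows the mean level (0.0380) and without vehicle replicate 2 (0.0479). Igf1r, the gene of the IGF1 receptor, fell by 0.47 ± 0.06 with Aβ42 (adjusted p = 4.7e-05) and changed by -0.09 ± 0.06 with AE1-329 alone (adjusted p = 0.486).

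Bdnf did not pass in any comparison, and every pair of groups overlapped. It read 6.45, 6.60 and 6.36 in vehicle, 6.58, 6.43 and 6.48 with Aβ42, 6.50, 6.50 and 6.42 with AE1-329, and 6.36, 6.54 and 6.43 with both. The 95% interval of its change with Aβ42 ran from -0.13 to 0.19 and with AE1-329 alone from -0.15 to 0.16. Ntrk2, the gene of TrkB, changed by -0.06 ± 0.16 with Aβ42 (adjusted p = 0.852). Sort1, the gene of sortilin, which sorts the BDNF precursor, fell by 0.51 ± 0.06 with Aβ42 (adjusted p = 1.3e-05).

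Counted over the 9 factors, Aβ42 alone raised 3 (Pdgfb, Tgfb1 and Osm) and lowered 1 (Hgf) in limma. Of all genes 25.6% passed, 10.7% higher and 14.8% lower. The 2 groups did not overlap for 4 of the 9 factors and for 35.0% of all genes. AE1-329 alone raised 1 (Hgf) and lowered 1 (Pdgfb), where 10.2% of all genes passed, 4.71% higher and 5.45% lower. These groups did not overlap for 3 factors and for 22.9% of all genes. AE1-329 added to Aβ42 raised 1 (Hgf) and lowered 2 (Pdgfb and Pdgfa), where 11.0% passed, 5.99% higher and 5.04% lower, and 5 factors and 32.0% of all genes did not overlap. Aβ42 added to AE1-329 raised 2 (Pdgfb and Lif) and lowered 1 (Hgf), where 22.0% passed, 9.77% higher and 12.2% lower, and 5 factors and 40.1% of all genes did not overlap. Both agents against vehicle raised 2 (Osm and Lif) and lowered 1 (Hgf), where 21.2% passed, 9.27% higher and 11.9% lower, and 5 factors and 30.3% of all genes did not overlap. The count of factors was read against these shares without a test, and the factors were chosen with earlier results of these data known. For the interaction 0 of 9 passed in limma, where 1.95% of all genes passed, 1.03% higher and 0.918% lower. At an unadjusted p under 0.05 there was 1 factor (Pdgfb), and the share of all genes at that looser threshold was not counted. The median size of change of the 9 factors with Aβ42 was 0.25 against 0.11 over all genes, and with AE1-329 alone 0.15 against 0.08. All factors but Bdnf and Lif lay above the median level, while the shares and medians over all genes include dim genes. In a fit of only genes above the median level 4728 passed with Aβ42 alone, against 5100 in the fit of all genes. With AE1-329 alone 2298 passed, against 2026. The all-gene shares are therefore not those of genes at the factors' levels. These comparisons share arrays, so their counts are not independent, and with 9 genes a count has little precision.

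Of the 16 receptor genes 2 rose and 4 fell with Aβ42 alone, namely Met, Egfr, Il6st, Tgfbr2, Lifr and Igf1r, and 10 did not pass. Their median change was -0.01, against 0.02 over all genes. With AE1-329 alone 1 fell (Tgfbr2), and with AE1-329 added to Aβ42 1 rose (Met) and 2 fell (Tgfbr2 and Tgfbr1). Without vehicle replicate 2 or 3, 2 receptor genes passed with AE1-329 alone, and likewise with the litter as a block. With both agents against vehicle 2 rose and 5 fell. Of the 30 genes of processing, binding and release, 4 rose and 6 fell with Aβ42 alone, 1 rose and 2 fell with AE1-329 alone, and 1 rose and 3 fell when AE1-329 was added to Aβ42. The medians were -0.01, 0.03 and -0.03, against 0.02, -0.01 and -0.02 over all genes. Of all genes 25.6%, 10.2% and 11.0% passed in these comparisons, and 21.2% with both agents against vehicle. The counts of both lists were read beside these shares without a test. These lists, and those of other ligands and of target genes below, were also chosen with earlier results of these data known.

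**Figure D4:**
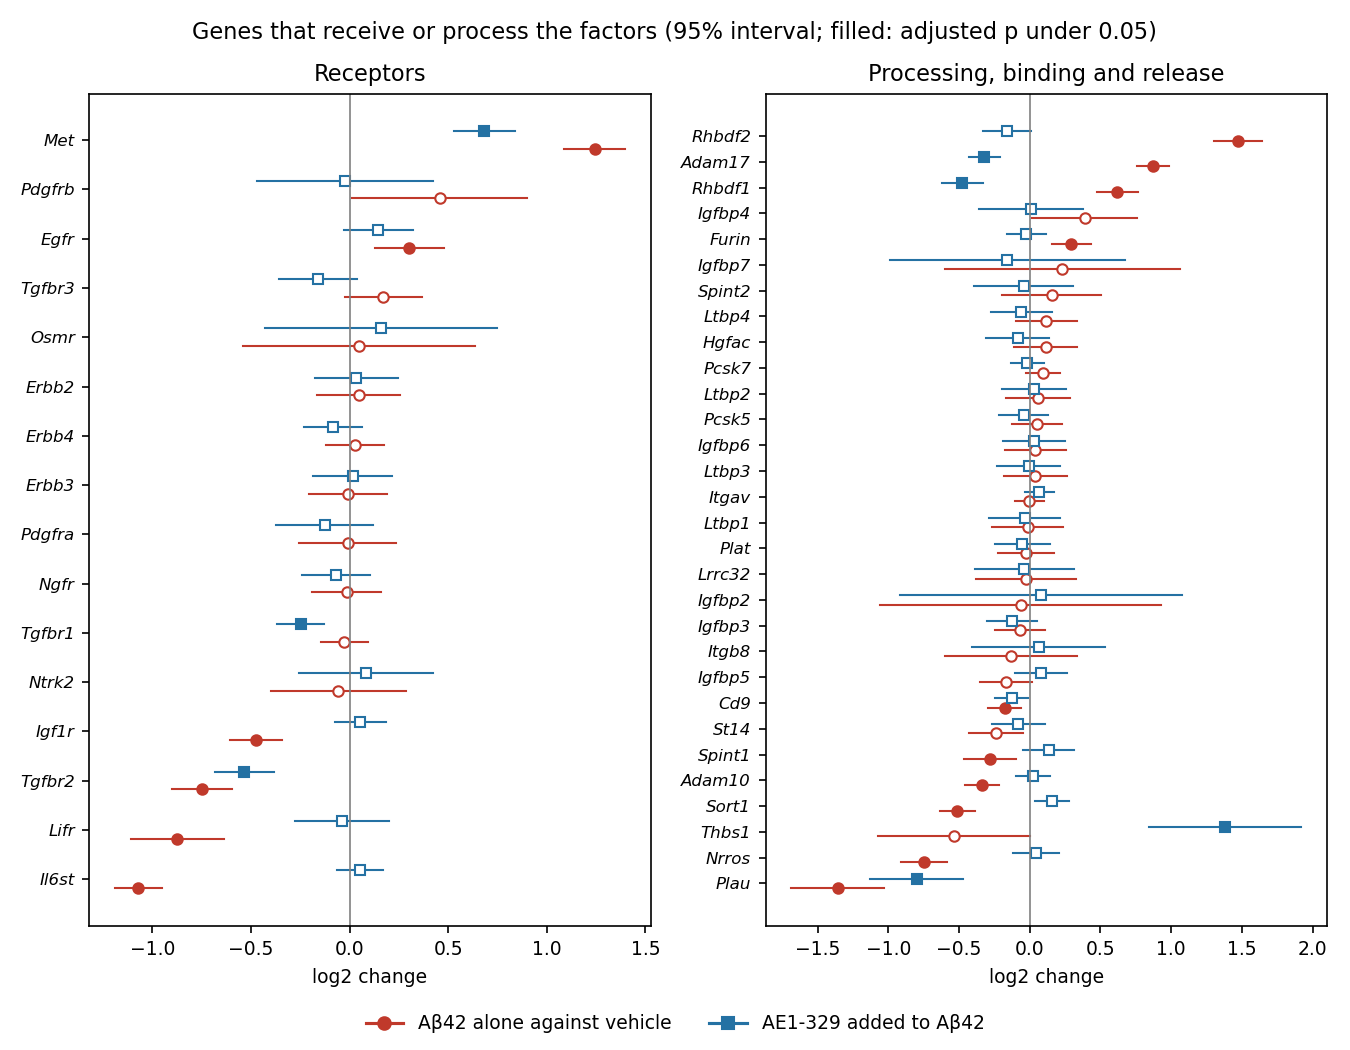
Log2 changes of 16 receptor genes (left) and 30 genes of processing, binding and release (right), with 95% intervals, for Aβ42 alone against vehicle (red circles) and for AE1-329 added to Aβ42 (blue squares). Filled symbols have an adjusted p under 0.05. Met is higher in both comparisons and Tgfbr2 and Plau are lower in both, while Il6st, Lifr and Igf1r are lower with Aβ42 and near 0 for AE1-329 on top of it.

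Of 23 other ligands of the same families, 2 rose and 3 fell with Aβ42 alone, where 25.6% of all genes passed. With the litter as a block 8 of these ligands passed in all, against 5697 of 19938 genes. Il6, the founding gene of the family of Osm and Lif, rose by 3.96 ± 0.12, and Clcf1, another ligand of that family, by 0.57 ± 0.10 (adjusted p = 6.9e-11 and 0.00053). The vehicle level of Il6 was 4.69 ± 0.20 (SD, n = 3), near that of the mast cell markers Cpa3 (4.78) and Mcpt4 (4.75). Whether it lies above background is unknown, so the size of the Il6 change is a difference of values on this scale. Gas6, a ligand of TAM receptors, fell by 0.46 ± 0.05 and Pdgfc by 0.72 ± 0.12 (adjusted p = 2.4e-05 and 0.00037). With AE1-329 alone 3 rose and 2 fell, where 10.2% of all genes passed. Vegfa, the gene of vascular endothelial growth factor A, had the smallest adjusted p, with a rise of 1.12 ± 0.10 (adjusted p = 1.3e-05). Tgfb3, of the family of Tgfb1, rose by 1.15, a call lost under 9 of 19 alternatives (adjusted p up to 0.136). The count of ligands that passed dropped from 5 to 2 without replicate 1 or 2 of AE1-329 alone or vehicle replicate 3. It dropped to 3 without replicate 3 of AE1-329 alone, with every probe set tested and with only the arrays compared. On top of Aβ42 AE1-329 raised Vegfa by 0.90 ± 0.10 (adjusted p = 7.3e-05), and Il6 by 0.42 ± 0.12 (adjusted p = 0.0375). The latter call ended under 8 of 18 alternatives. These were leaving out any 1 of the 6 arrays compared (0.0541 to 0.167), quantile normalization again (0.0597) and every probe set tested (0.0844).

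Of 23 feedback and target genes of the factors' receptors, 9 rose and 5 fell with Aβ42 alone, where 25.6% of all genes passed. Their median change was 0.09, against 0.02 over all genes. Bcl3, a nuclear IkB protein gene that answers to STAT3 and NF-kB, rose by 1.83 ± 0.08, and Ski, a repressor of SMAD signalling, fell by 0.79 ± 0.06 (adjusted p = 1.4e-09 and 2.4e-07). With AE1-329 alone 6 rose and 3 fell, where 10.2% of all genes passed. Fos rose by 0.93 ± 0.10 and Dusp5, a phosphatase of ERK, by 0.56 ± 0.07, while Myc fell by 0.99 ± 0.09 and Egr1 by 0.78 ± 0.08 (adjusted p from 1.4e-05 to 0.00013). When AE1-329 was added to Aβ42, 7 rose and 3 fell, where 11.0% of all genes passed. Fos rose by 1.02 ± 0.10 and Smad6, an inhibitory SMAD gene, by 0.68 ± 0.07, and Egr1 fell by 0.88 ± 0.08 (adjusted p = 2.2e-05, 2.8e-05 and 2.0e-05). Many receptors other than those of the 9 factors act on these genes.

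The genes whose levels followed each factor most closely were found by Pearson correlation over the 12 arrays, which share treatments, litters and normalization. Predicted, olfactory receptor and microRNA genes, genes with clone names and the listed factors were left out. The values are the highest over all genes that remained. A high r was reached even by Bdnf, which did not pass in any comparison. Hgf was most like Fam117b (r = 0.996) and the chemokine receptor gene Cxcr4 (0.994). Pdgfb was most like Nol9 (0.989) and the transcription factor gene Egr2 (0.984). Tgfb1 was most like Ndel1 (0.973) and Msn (0.968), and Hbegf like Map1b (0.958) and Pappa (0.958). For Lif the closest were Wwtr1 (0.924) and Tmcc1 (0.918), for Osm Spam1 (0.919) and Mier3 (0.915), for Pdgfa Nlrc5 (0.920) and Plcxd2 (0.917), for Igf1 Btbd19 (0.952) and Vps54 (0.950), and for Bdnf H2-Eb2 (0.949) and Tmem217 (0.943). Among the factors themselves Hgf and Pdgfb correlated at -0.81, Hgf and Tgfb1 at -0.86, and Osm and Lif at 0.56.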

How the data were processed

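The authors deposited 1 log2 value for each probe set on each array. Per the submitters' processing notes the tools were RMA and Partek 6.5, with no role given. That the scale is log2 follows from their range, 2.79 to 13.95. The platform annotation gives a lone symbol to 21789 of the 35556 probe sets, several to 1621 and none to 12146. Gene IDs of 21698 of the first kind matched RefSeq. For each gene the probe set with the highest mean was kept, which left 19938 genes and no filter on dim ones. Each of the 9 measured factors had 1 such probe set.

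All 12 arrays entered 1 model of the 4 group means (limma 3.58.1, R 4.3.3, functions lmFit and eBayes), which left 8 residual degrees of freedom. The p-values are two-sided and adjusted by Benjamini-Hochberg over all 19938 genes, with a threshold of 0.05. No set test was run. The script was tested on simulated data. The number of arrays limits the precision, and signal over background is unknown.

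Replicates are litters per the labels, so arrays of 1 replicate number were paired for differences given litter by litter and for the litter block. Over 18 pairs of arrays with 1 number, residuals about the group means had a mean correlation of 0.33 (0.0044 to 0.54), and 12 of 12 arrays correlated best with their own number. Over 36 pairs with different numbers the mean correlation was -0.16. The fit without the litter is the reported one, so its standard errors, intervals and adjusted p leave out this pairing. The litter block is an alternative.

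The members and the gene lists were chosen with earlier results of these data known. The text names all members, in each list and comparison up to 4 genes with the smallest p among those that passed, and for each member the 2 genes most like it. Outside this rule, and after their values were seen, Igf1r, Egfr, Pdgfra, Pdgfrb, Osmr, Ntrk2, Erbb2, Erbb3 and Erbb4 were named for the receptors. In the same way Smad7, Tgfbi and Skil were named for the TGF-beta targets and Tgfb3 for the other ligands. So were Adam10, Cd9, Sort1, Hgfac, Spint1 and, with Aβ42 alone, Plau for processing, and some cell type markers. Alternatives were another quantile normalization, a robust prior that follows the mean level, only genes above the median, averaging a gene's probe sets, testing every probe set, only the arrays compared, the litter block, and leaving out each array.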

Additional observations from a re-analysis of the deposited data

How the results depend on the processing

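Counts of the 9 factors that passed moved by over 1.5 times from 4 to 2 for Aβ42 alone with only the arrays compared, and from 3 to 5 for both agents against vehicle with a robust prior that follows the mean level. For the interaction the count went from 0 to 1 with that prior, among genes above the median level and with the replicate block. Leaving out 1 array gave 3 to 5 for Aβ42 alone, 2 to 3 for AE1-329 alone, 2 to 4 for AE1-329 added to Aβ42, 3 to 4 for Aβ42 added to AE1-329, 2 to 4 for both agents against vehicle and 0 to 1 for the interaction. Over all genes, 970 passed for AE1-329 alone with only the arrays compared, against 2026, and 677 for the interaction with the replicate block, against 389. The interaction count ran from 246 to 557 when 1 array was left out, with 246 without replicate 2 and 254 without replicate 3 of Aβ42 alone, and 254 without replicate 2 of AE1-329 alone. Of the values of single factors, 942 under alternatives kept direction and side of the threshold, 17 lost the call, 20 gained it, 26 of no call changed sign and 0 calls reversed. Beyond the calls named for Pdgfb, Lif and Hbegf, the replicate block changed no call of the 9 factors. Hgf and Pdgfb kept every call they had under all alternatives run. Bdnf and Lif had no value among genes above the median level, because their means lie below it. The interaction was not run with only the arrays compared, since it uses all 12. The cause of these moves was not tested. Signal over background, unknown here, limits what the dim factors Bdnf and Lif can show, and the sizes given for Il6 and Met, whose vehicle levels read lower still. The same limit applies to the receptor genes Egfr, Erbb2, Erbb3, Erbb4, Pdgfra and Ntrk2, with vehicle means from 6.26 to 6.79. It also applies to Lifr with Aβ42 alone (mean 6.82).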
